A study of Zea mays with 8 samples.

Results

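Gene expression in the aleurone, the outermost cell layer of the cereal endosperm, was set against that of the starchy endosperm beneath it in maize kernels at 22 days after pollination (DAP). All kernels were of the inbred line B73, grown in a greenhouse, with no mutant, transgene or treatment in any group. The 4 libraries compared, of 8 in the series, were the 2 biological replicates labelled aleurone cells and the 2 labelled for starchy endosperm at this age, chosen by those labels and not by any measured value. The other 4 libraries, the same tissues at 18 DAP, entered the statistical model and were used to set the tissue difference at 22 DAP beside the earlier one. Per the labels' protocols, kernels of replicate plants were frozen and then thawed, and the layers were peeled apart mechanically and rinsed in water. A peel can therefore carry cells of its neighbours, and in bulk tissue of this kind fewer cells of a type and less RNA per cell cannot be told apart.

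The endosperm feeds the germinating seedling, and its parts do so in different ways. Cells of the starchy endosperm fill with starch and with zeins, the prolamin storage proteins of maize, and die as the kernel matures. Cells of the aleurone stay alive through drying, store oil, globulins and phytate in place of starch, and at germination secrete the enzymes that break down the starchy tissue. Aleurone identity depends on position at the endosperm surface and on regulators such as the calpain DEK1, the receptor kinase CR4 and the NKD transcription factors, while the bZIP factor Opaque2 and the Dof factor PBF1 drive zein genes inside.

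Total counts were 3074139 and 7001775 in the aleurone libraries (replicates 1 and 2) and 2473005 and 6767597 in the starchy endosperm libraries. RNA integrity was checked in 1 of each pair of replicates, per the labels' protocols, without saying which. The replicates of starchy endosperm were far apart in breadth. Replicate 1 had reads on 16720 genes and replicate 2 on 9335, although replicate 2 was deeper, and at a common depth of 2473005 counts the numbers were 16720 and 8920. Aleurone had 23154 and 20134 genes. The Spearman correlation over tested genes was 0.83 between the aleurone libraries and 0.66 between the starchy endosperm libraries. Between the tissues it was 0.75 for the libraries of replicate 1, above the value within starchy endosperm, and 0.60, 0.52 and 0.51 for the other pairs. Named zeins took 10.0% and 11.7% of counts in aleurone and 59.2% and 62.7% in starchy endosperm. The trimmed mean of M values (TMM) scaling, which sets aside genes of extreme ratio, gave factors of 1.93 and 1.53 in aleurone and 0.537 and 0.645 in starchy endosperm. Levels of a gene are given below as TMM-scaled CPM, the counts relative to the scaled library size, in the order of replicates 1 and 2, and fold changes are log2 values of aleurone over starchy endosperm on the same scale. TPM, a share of all transcripts corrected for gene length and without that scaling, is used where genes or groups of genes are compared in level. A level of 3 counts was 2.26 CPM in starchy endosperm replicate 1 and 0.688 CPM in replicate 2.

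Of 19058 genes tested with edgeR's quasi-likelihood test, 322 (1.69%) passed an adjusted p (Benjamini-Hochberg) of 0.05. Among them 226 (1.19%) were higher and 96 (0.504%) lower in aleurone. The higher genes differed by more, with a median log2 fold change of 8.04 against -3.63 for the lower ones. They made up 8.87% and 18.0% of the counts of tested genes in aleurone and 0.118% and 0.127% in starchy endosperm, and 58 of them had no count in either starchy endosperm library. Of all tested genes, 3234 had none in either and 10059 none in replicate 2. Genes with none in either passed the filter on low counts only through other libraries. Such a gene is above in aleurone whenever each aleurone library has a read, so its lack of overlap adds little. The 96 lower genes held 71.7% and 60.8% of counts in starchy endosperm and 11.6% and 9.70% in aleurone, and 1 of them had no count in aleurone. Both replicate numbers gave the fitted direction for all 322 genes. As these genes were called from the same libraries, that is no separate support. The median log2 fold change of all tested genes was 0.94, and a list is read below against that value and not against 0. The calls in a list are read against the shares of 1.19% higher and 0.504% lower. That median was 5.38 without starchy endosperm replicate 1 and 0.58 without replicate 2, and within replicate numbers 1 and 2 it was 0.44 and 2.24.

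The balance of calls moved with the scaling and with single libraries. Calls were 226 higher and 96 lower with TMM, 303 and 122 with the size factors of DESeq2, 247 and 220 with upper quartile factors, 380 and 84 with counts outside the zeins as library size, and 1585 and 38 with the total count alone. The median of all tested genes was 0.94, 1.06, 0.68, 1.41 and 2.56 in the same order. None of the 322 calls turned its direction with the total count alone. In mean TPM 2 of the 96 lower genes were higher in aleurone, and 0 of the 226 higher genes were lower. Without starchy endosperm replicate 2, the library with few detected genes, 120 genes were higher and 110 lower. Of the 226 higher genes 104 passed without it, and of the 96 lower genes 85 did. Other single libraries moved the count further, to 4938 calls (4498 higher and 440 lower) without starchy endosperm replicate 1 and to 179 without aleurone replicate 2. The 4 libraries of 22 DAP fitted alone gave 0 calls by edgeR, with 2950 genes at an unadjusted p under 0.05. With a term for the replicate number (a replicate block) the same 4 gave 792 calls, 544 higher and 248 lower. Over all 8 libraries DESeq2 gave 2360 calls and limma-voom 727. Where a gene's call was lost without starchy endosperm replicate 2, its adjusted p in that fit is given beside it.

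**Figure D1:**
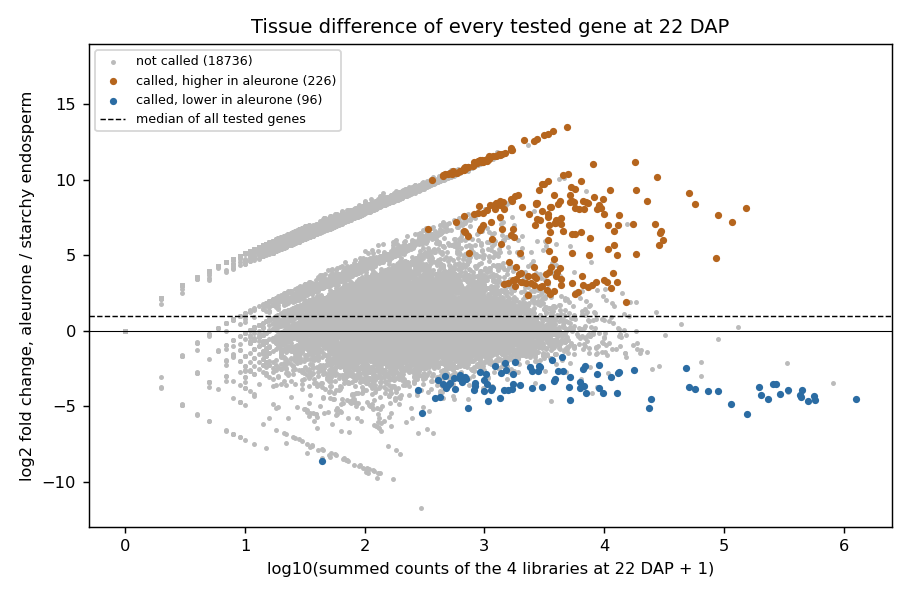
Log2 fold change of aleurone over starchy endosperm at 22 DAP (vertical axis) against the summed counts of the 4 libraries (horizontal axis, log10 of counts plus 1) for all 19058 tested genes. Brown points are the 226 genes called higher and blue points the 96 called lower in aleurone, and the dashed line marks the median of 0.94. The upper diagonal band holds genes with no count in starchy endosperm, whose fitted value follows their count in aleurone.

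Genes for the proteins that coat oil bodies were higher in aleurone. All 6 tested genes of the oil body list had both aleurone libraries above both starchy endosperm libraries, against 41.6% of all tested genes, and 5 were called higher, against 1.19% of all tested genes. Of the 6 genes 2 had no count in starchy endosperm and passed the filter on low counts only through other libraries, so their lack of overlap adds little. Their median log2 fold change was 9.32, or 8.41 with the genes that had no count in starchy endosperm at their lower bound, against 0.83 for all tested genes on that basis. Summed over the list, TPM was 5168, 17496, 10.1 and 14.6 in aleurone replicates 1 and 2 and starchy endosperm replicates 1 and 2. oleosin (GRMZM2G333069), named for the structural protein of the oil body surface, had 116 and 254 CPM in aleurone and 0 counts in both starchy endosperm libraries. The excess in aleurone was at least 389-fold, with an adjusted p = 0.00704. ole17 (GRMZM2G480954) had 446 and 2337 CPM in aleurone and 0.754 and 1.38 CPM in starchy endosperm, a log2 fold change of 10.19 (adjusted p = 0.00667, SE 1.25). ole1 (GRMZM2G337229), a further oleosin and the most abundant of them, had 1025 and 4840 CPM in aleurone and 8.29 and 9.17 CPM in starchy endosperm, a log2 fold change of 8.38 (adjusted p = 0.00665, SE 1.02). For each oleosin, aleurone replicate 2 was the higher of its pair and the groups lay far apart. The oil body associated proteins OBAP1A and OBAP2A are small non-oleosin proteins of the same organelle. OBAP1A (GRMZM2G044627) had 128 and 612 CPM in aleurone and 2.26 and 0.459 CPM in starchy endosperm, with a log2 ratio of 8.45 (adjusted p = 0.0394, SE 1.602). OBAP2A (GRMZM2G043521) had 201 and 1008 CPM in aleurone and 9.8 and 13.8 CPM in starchy endosperm, with a log2 ratio of 5.66 (adjusted p = 0.0252, SE 0.95). Neither OBAP gene passed without starchy endosperm replicate 2, at adjusted p = 0.125 and 0.0886.

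Some enzymes of fatty acid and lipid synthesis were called higher. Of 11 tested genes of lipid synthesis 3 were called higher, against 1.19% of all tested genes, and none lower. The median log2 fold change of 0.64 was below that of all genes. fad2 (GRMZM2G064701), whose product desaturates oleate in the endoplasmic reticulum, had 36.3 and 88.6 CPM in aleurone and 2.26 and 0.229 CPM in starchy endosperm. The log2 ratio was 6.06 (adjusted p = 0.0406, SE 1.16). fad7 (GRMZM2G128971), a desaturase of plastid lipids, had 36.3 and 62.9 CPM in aleurone and 0.754 and 0 CPM in starchy endosperm. With a single count in starchy endosperm it had a ratio of 304 (exact 95% interval 54.4 to 12000), with an adjusted p = 0.0439. Acetyl-CoA carboxylase makes the malonyl-CoA from which fatty acids are built, and its gene ACC1 (GRMZM5G858094) had 446 and 257 CPM in aleurone and 82.2 and 50.7 CPM in starchy endosperm, with a log2 fold change of 2.41 (adjusted p = 0.0469, SE 0.48). Aleurone was above starchy endosperm in all 3 genes and the groups did not overlap, but none passed without starchy endosperm replicate 2 (adjusted p = 0.0989, 0.0875 and 0.141).

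Storage globulins, the salt-soluble seed proteins, lay on both sides of the comparison. glb1 (GRMZM2G067919), the vicilin-type globulin best known from the embryo, had 246 and 1502 CPM in aleurone and 3.02 and 9.4 CPM in starchy endosperm. Its log2 fold change of 7.04 (adjusted p = 0.0239, SE 1.17) was the one call among 4 tested globulin genes, against 1.19% of all tested genes called higher. The call was lost without starchy endosperm replicate 2 (adjusted p = 0.0659). Its paralogue glb2 (GRMZM2G026703) had 5.6 and 38.1 CPM in aleurone and 0 counts in both starchy endosperm libraries and was not called (adjusted p = 0.151). The legumin gene leg1 (GRMZM2G174883) lay the other way, at 274 and 805 CPM in aleurone and 1756 and 3743 CPM in starchy endosperm. Its log2 fold change of -2.35 (adjusted p = 0.177) was not called. The gene listed as glb3 (GRMZM2G410134) had 99.7 and 675 CPM in aleurone and 752 and 3787 CPM in starchy endosperm, with replicate 2 several times replicate 1 in each tissue, and was not called either at -2.55 (adjusted p = 0.339). In TPM the 4 genes summed to 831, 3181, 804 and 3335 in aleurone and starchy endosperm, so that the list total did not show the opposite directions.

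Genes of desiccation tolerance had reads in aleurone and at most 2 in a starchy endosperm library. LEA proteins and dehydrins are hydrophilic proteins that protect membranes and enzymes during drying. Of 6 tested members 5 had no count in either starchy endosperm library, as did 3234 of all 19058 tested genes, and such members passed the filter on low counts only through other libraries. Called higher were 2, against 1.19% of all tested genes, and the median log2 fold change was 9.98, or 5.41 with bounds. The TPM sums were 219, 252, 1 and 0. dhn1 (GRMZM2G079440), a dehydrin induced by abscisic acid (ABA), had 40.7 and 72.8 CPM in aleurone and 0 counts in both starchy endosperm libraries and exceeded starchy endosperm at least 116-fold (adjusted p = 0.0218). mlg3 (GRMZM2G096475), a LEA protein gene, had 27.5 and 53.6 CPM in aleurone and 0 counts in both starchy endosperm libraries and exceeded starchy endosperm at least 84-fold (adjusted p = 0.0184). The dehydrin genes dehydrin7 (GRMZM2G002786) and dhn2 (GRMZM2G373522) were also at 0 in starchy endosperm, with 34.1 and 15.8 CPM and 8.99 and 30.2 CPM in aleurone, and were not called (adjusted p = 0.0626 and 0.122). No gene among the 16 tested for ABA synthesis and response was called, where 1.69% of all tested genes were called. Their median of 0.48 was below that of all genes. vp1 (GRMZM2G133398), the B3 factor Viviparous1 that couples ABA to seed maturation, had 16.4 and 69.5 CPM in aleurone and 0 counts in both starchy endosperm libraries. It was at least 96-fold higher and missed the threshold at adjusted p = 0.0536.

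Phytate, the phosphate store of seeds, is built on inositol and is deposited in aleurone globoids. Both genes for the enzyme that makes inositol phosphate from glucose phosphate were called higher, out of 5 tested genes of phytate synthesis, and both passed without starchy endosperm replicate 2. INO1 (GRMZM2G155242) had 149.9 and 340.3 CPM in aleurone and 6.03 and 0.229 CPM in starchy endosperm, with a log2 ratio of 6.63 (adjusted p = 0.0279, SE 1.16). mips2 (GRMZM2G004528) had 152 and 246 CPM in aleurone and 5.28 and 0.229 CPM in starchy endosperm, with a log2 ratio of 6.54 (adjusted p = 0.0319, SE 1.18). In each, starchy endosperm replicate 1 kept a few CPM and replicate 2 a single read. These 2 calls among 5 genes stand against 1.19% of all tested genes called higher. The inositol kinase gene lpa3 (GRMZM2G361593) had 22.2 and 29.2 CPM in aleurone and 1.51 and 10.6 CPM in starchy endosperm and was not called (log2 2.03, adjusted p = 0.501).

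Most antioxidant genes lay higher in aleurone, and 3 were called higher, against 1.19% of all tested genes. Of 29 tested genes 24 had both aleurone libraries above both starchy endosperm libraries and none had the reverse, against 41.6% and 12.1% of all genes. Of the 29 genes 8 had no count in 1 of the tissues and passed the filter on low counts only through other libraries. For these 8 a lack of overlap adds little. The median log2 fold change was 2.91, and 2.78 with bounds. Called were gst1 (GRMZM2G116273), a glutathione S-transferase, grx1 (GRMZM2G150295), a glutaredoxin, and PER1 (GRMZM2G129761), a peroxiredoxin. gst1 had 456 and 842 CPM in aleurone and 35.4 and 55.7 CPM in starchy endosperm, with a log2 fold change of 3.82 (adjusted p = 0.012, SE 0.53). grx1 had 469.5 and 518 CPM in aleurone and 76.1 and 30.9 CPM in starchy endosperm, with a log2 fold change of 3.22 (adjusted p = 0.0163, SE 0.48). PER1 had 205 and 1028 CPM in aleurone and 5.28 and 7.11 CPM in starchy endosperm, with a log2 fold change of 6.603 (adjusted p = 0.0219, SE 1.07). All 3 were well expressed in every aleurone library and above the detection floor in starchy endosperm, and PER1 alone of them lost its call without starchy endosperm replicate 2 (adjusted p = 0.0849). The superoxide dismutase gene sod4 (GRMZM2G169890) had 91.1 and 151 CPM in aleurone and 28.6 and 15.1 CPM in starchy endosperm and fell just outside the threshold (log2 2.48, adjusted p = 0.0633).

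**Figure D2:**
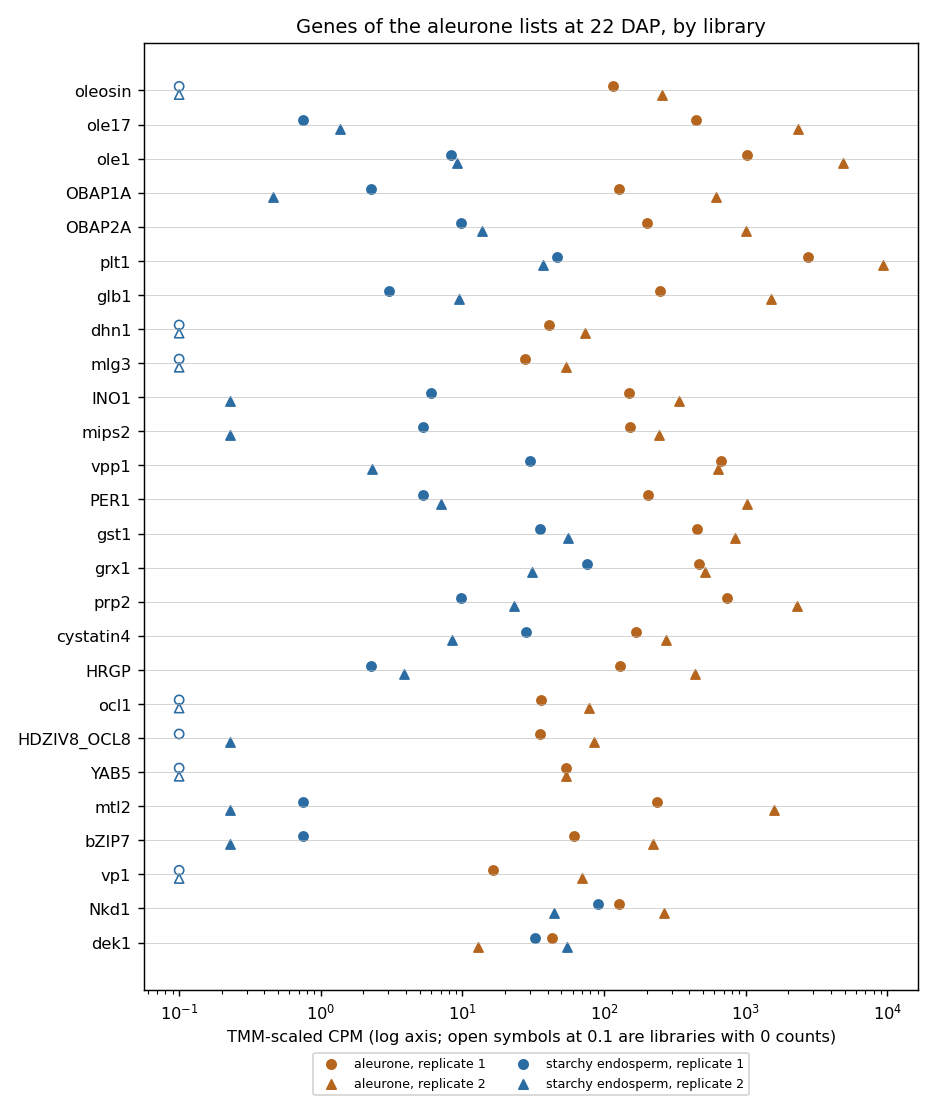
TMM-scaled CPM (log axis) of 26 genes in each of the 4 libraries at 22 DAP, brown for aleurone and blue for starchy endosperm, circles for replicate 1 and triangles for replicate 2, with open symbols for 0 counts. Every gene but dek1 has both aleurone libraries to the right of both starchy endosperm libraries, and oleosin, dhn1, mlg3, ocl1, YAB5 and vp1 have no count in starchy endosperm.

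The tested HD-ZIP IV genes and AD1, which act at outer surfaces, had 1 read at most in a starchy endosperm library. The HD-ZIP IV transcription factors mark the epidermis-like outer layer of plant organs and act on cuticle genes. All 5 tested members had both aleurone libraries above starchy endosperm, against 41.6% of all tested genes. Of these members 4 had no count in starchy endosperm and passed the filter on low counts only through other libraries. Their lack of overlap therefore adds little. Called higher were 2 of the 5, against 1.19% of all tested genes. The median log2 fold change was 9.99, or 6.24 with bounds. The list summed to 75.8, 133, 0 and 0.04 TPM. ocl1 (GRMZM2G026643), the founding outer cell layer gene, had 35.6 and 77.8 CPM in aleurone and 0 counts in both starchy endosperm libraries and exceeded starchy endosperm at least 119-fold (adjusted p = 0.0176). HDZIV8_OCL8 (GRMZM2G122897) had 35.3 and 84.7 CPM in aleurone and 0 and 0.229 CPM in starchy endosperm. From 1 count in starchy endosperm it had a ratio of 381 (exact 95% interval 68.3 to 15100), with an adjusted p = 0.0176. ocl5 (GRMZM2G130442) and HDZIV6_OCL6 (GRMZM2G001289) had no count in starchy endosperm and 16.4 and 52.9 CPM and 13.7 and 30.7 CPM in aleurone, and they missed the threshold (adjusted p = 0.057 and 0.0616). AD1 (GRMZM2G167438), or adherent1, keeps neighbouring epidermal surfaces of maize from fusing. It had 56.8 and 92.6 CPM in aleurone and 0 counts in both starchy endosperm libraries and exceeded starchy endosperm at least 151-fold (adjusted p = 0.00823).

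Some genes of lipid transfer and defence were called higher in aleurone. plt1 (GRMZM2G101958), a phospholipid transfer protein, had 2749 and 9348 CPM in aleurone and 46.7 and 37.1 CPM in starchy endosperm. The log2 ratio was 7.18 (adjusted p = 0.00406, SE 0.79), with aleurone replicate 2 above replicate 1. plt2 (GRMZM2G010868) had 24.2 and 43.5 CPM in aleurone and 0 counts in both starchy endosperm libraries and was not called (adjusted p = 0.0725). Of 29 tested defence genes 3 were called, all higher, against 1.19% of all tested genes. Both aleurone libraries were above both starchy endosperm libraries in 18 and below in 5, against 41.6% and 12.1% of all tested genes. Of the 29 genes 7 had no count in 1 of the tissues, so that their lack of overlap adds little. The median log2 fold change of the list was 2.16, or 1.197 with bounds. prp2 (GRMZM2G102356), a pathogenesis-related protein, had 743 and 2313 CPM in aleurone and 9.8 and 23.1 CPM in starchy endosperm, a log2 fold change of 6.496 (adjusted p = 0.00827, SE 0.84). cystatin4 (GRMZM2G013461), an inhibitor of cysteine proteases, had 167 and 276 CPM in aleurone and 27.9 and 8.48 CPM in starchy endosperm, a log2 fold change of 3.65 (adjusted p = 0.0266, SE 0.63). Zlp (GRMZM2G374971), a zeamatin-like antifungal protein, had 103 and 697 CPM in aleurone and 0 and 0.229 CPM in starchy endosperm. From a single read in starchy endosperm it had a ratio of 2760 (exact 95% interval 495 to 109000), with adjusted p = 0.012 and 0.0614 without starchy endosperm replicate 2.

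Some genes of the cell wall and a gene of the vacuole membrane were called. Of 30 tested wall genes 2 were called higher, against 1.19% of all tested genes, and 1 lower, against 0.504%. HRGP (GRMZM2G168651), a hydroxyproline-rich wall glycoprotein, had 129 and 436 CPM in aleurone and 2.26 and 3.9 CPM in starchy endosperm, with a log2 fold change of 6.43 (adjusted p = 0.026, SE 1.099) that was lost without starchy endosperm replicate 2 (adjusted p = 0.0892). expB3 (GRMZM2G474194), a beta expansin that loosens grass cell walls, had 45.1 and 73.6 CPM in aleurone and 0 counts in both starchy endosperm libraries and exceeded starchy endosperm at least 120-fold (adjusted p = 0.0183). The lower one was Bk2L6 (GRMZM2G167520), a COBRA-like relative of the brittle stalk gene, at 4.75 and 7.42 CPM in aleurone and 118 and 187 CPM in starchy endosperm. The log2 ratio was -4.64 (adjusted p = 0.0163, SE 0.697). vpp1 (GRMZM2G069095), the proton-pumping pyrophosphatase of the vacuole, had 668 and 640.2 CPM in aleurone and 30.1 and 2.29 CPM in starchy endosperm, a log2 fold change of 5.42 (adjusted p = 0.0335, SE 0.99). Aleurone held it at an even level while the 2 starchy endosperm libraries were 1 order of magnitude apart. It was the call among 11 tested membrane transport genes, against 1.19% of all tested genes called higher. All 11 had a positive fitted value, against 13217 of all 19058 genes.

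Genes of amino acid metabolism lay towards aleurone. All 15 tested genes had a positive fitted value, against 13217 of all 19058 genes. Called higher were 2, against 1.19% of all tested genes. asn2 (GRMZM2G093175), an asparagine synthetase, had 110.2 and 258 CPM in aleurone and 0.754 and 4.13 CPM in starchy endosperm, a log2 fold change of 6.03 (adjusted p = 0.0188, SE 0.95). lkrsdh1 (GRMZM2G181362), the bifunctional enzyme that breaks down lysine, had 386 and 277 CPM in aleurone and 48.2 and 27.1 CPM in starchy endosperm, a log2 fold change of 3.15 (adjusted p = 0.0234, SE 0.52) that was lost without starchy endosperm replicate 2 (adjusted p = 0.0886). The glutamine synthetase gene gln2 (GRMZM2G024104) had 64.1 and 266 CPM in aleurone and 6.03 and 0.459 CPM in starchy endosperm and was not called (adjusted p = 0.0756). gln4 (GRMZM5G872068), for the same enzyme, had 47.5 and 165 CPM in aleurone and 3.77 and 0 CPM in starchy endosperm and was not called (adjusted p = 0.0845). The groups did not overlap for any of the 4. TPM of the whole list summed to 7534, 7405, 1408 and 1346.

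Other transcription factors and stress genes of the aleurone were called singly, where 1.19% of all tested genes were called higher. A single call in a list says little about the list. YAB5 (GRMZM2G116646), a YABBY factor, had 54.1 and 53.8 CPM in aleurone and 0 counts in both starchy endosperm libraries and exceeded starchy endosperm at least 102-fold (adjusted p = 0.0206), with aleurone replicates nearly equal. bZIP7 (GRMZM2G006578) was the call among 28 tested bZIP genes, at 61.6 and 221 CPM in aleurone and 0.754 and 0.229 CPM in starchy endosperm. It had a ratio of 467 (exact 95% interval 129 to 3860), with adjusted p = 0.0127 and 0.0645 without starchy endosperm replicate 2. Hsf01 (GRMZM2G165998), a heat shock transcription factor, was the call among 22 heat shock genes, at 262 and 259 CPM in aleurone and 39.2 and 10.8 CPM in starchy endosperm, with a log2 fold change of 3.41 (adjusted p = 0.0288, SE 0.604). Its identifier was paired with 2 reference genes. mtl2 (GRMZM2G402564), for which no role is given here, had 237 and 1575 CPM in aleurone and 0.754 and 0.229 CPM in starchy endosperm. It had a ratio of 3120 (exact 95% interval 865 to 25800), with adjusted p = 0.0114 and 0.0636 without starchy endosperm replicate 2. dxs2 (GRMZM2G493395), the first enzyme of plastid isoprenoid synthesis, had 29.9 and 115 CPM in aleurone and 0 counts in both starchy endosperm libraries. It was at least 160-fold higher (adjusted p = 0.0309, and 0.089 without starchy endosperm replicate 2) and the call among 17 isoprenoid and carotenoid genes.

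None of the 6 tested regulators of aleurone fate was called, and some overlapped between the tissues. As 1.69% of all tested genes were called, the lack of a call among 6 says little about them. At 18 DAP 1 of the 6 was called, higher in aleurone. Of 6 tested, 3 had both aleurone libraries above both starchy endosperm libraries, against 41.6% of all tested genes, and the median log2 fold change was 1.19. Besides vp1 these were Nkd1 (GRMZM2G129261), one of the paired naked endosperm factors, and cr4 (GRMZM2G051637), the crinkly4 receptor kinase. As vp1 had no count in starchy endosperm, its lack of overlap adds little. Nkd1 had 126 and 266 CPM in aleurone and 90.5 and 44.2 CPM in starchy endosperm, a log2 fold change of 1.55 (adjusted p = 0.207). cr4 had 13.6 and 9.58 CPM in aleurone and 0.754 and 0 CPM in starchy endosperm, and its adjusted p was 0.211. The other three overlapped between the tissues in CPM. Nkd2 (GRMZM5G884137) had 57.7 and 102 CPM in aleurone and 22.6 and 66.7 CPM in starchy endosperm, a log2 fold change of 0.82 (adjusted p = 0.533). dek1 (GRMZM2G321753), the calpain, had 42.7 and 12.8 CPM in aleurone and 32.4 and 54.3 CPM in starchy endosperm, a log2 fold change of -0.65 (adjusted p = 0.68). Sal1 (GRMZM2G117935), an endosomal sorting protein whose loss gives extra aleurone layers, had 27 and 80.2 CPM in aleurone and 24.9 and 76.6 CPM in starchy endosperm, a log2 fold change of 0.07 (adjusted p = 0.98). The replicates of each of dek1 and Sal1 differed by more than the tissues did. The sign of dek1 turned to 0.95 with the total count alone, and that of Sal1 to -0.42 with upper quartile factors, while on the log2(TPM + 1) scale Sal1 passed limma's test as higher, at 1.95 (adjusted p = 0.0456).

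Anthocyanin genes had more reads in aleurone, without a call. Their enzymes make the red and purple pigments of coloured aleurone. Of 6 tested genes 5 had both aleurone libraries above both starchy endosperm libraries, against 41.6% of all tested genes, and the list summed to 72.9, 102, 0.87 and 6.09 TPM. A1 (GRMZM2G026930), dihydroflavonol reductase, had 19 and 27.4 CPM in aleurone and 0 counts in both starchy endosperm libraries, at least 46.3-fold higher (adjusted p = 0.169). fht1 (GRMZM2G062396), flavanone 3-hydroxylase, had 16.3 and 24.1 CPM in aleurone and 0 counts in both starchy endosperm libraries, at least 40.5-fold higher (adjusted p = 0.194). chi1 (GRMZM2G155329), chalcone isomerase, had 1.7 and 15.5 CPM in aleurone and 0 counts in both starchy endosperm libraries. BZ1 (GRMZM2G165390), a flavonoid glucosyltransferase, had 2.38 and 5.36 CPM in aleurone and 0 counts in both starchy endosperm libraries. The fitted median was 8.05, and 3.68 with bounds, as 4 of the 6 genes had no count in starchy endosperm. These 4 passed the filter on low counts only through other libraries, so their lack of overlap adds little.

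Zeins were lower in aleurone and carried most of the reads of the starchy endosperm. Of 26 tested zein genes 24 had both aleurone libraries below both starchy endosperm libraries, against 12.1% of all genes. Called lower were 20, against 0.504% of all tested genes, and 1 was called higher, against 1.19%. The median log2 fold change was -3.94. In TPM the family summed to 140981, 147445, 607380 and 628285. z1A1_3 (GRMZM2G059620), an alpha zein, had the highest TPM of the named genes in starchy endosperm, with 30781 and 23793 TPM in aleurone and 169320 and 148131 TPM in starchy endosperm. In CPM it had 9149 and 9747 CPM in aleurone and 251259 and 177690 CPM in starchy endosperm. The log2 ratio was -4.505 (adjusted p = 0.00301, SE 0.42). z1A2_1 (GRMZM2G008341) had 3351 and 3588 CPM in aleurone and 102834 and 71088 CPM in starchy endosperm. Its log2 fold change of -4.65 (adjusted p = 0.00301, SE 0.41) was the most negative among the 26 named zeins of the list. FL2 (GRMZM2G397687), the alpha zein whose mutant gives floury kernels, had 2747 and 4092 CPM in aleurone and 67451 and 65603 CPM in starchy endosperm, a log2 fold change of -4.28 (adjusted p = 0.00323, SE 0.42). gz50 (GRMZM2G138689), a gamma zein of the protein body shell, had 2011 and 1583 CPM in aleurone and 54617 and 29878 CPM in starchy endosperm, a log2 fold change of -4.55 (adjusted p = 0.00369, SE 0.48). dzs18 (GRMZM2G100018), a methionine-rich delta zein, had 961 and 1104 CPM in aleurone and 6311 and 5211 CPM in starchy endosperm, a log2 fold change of -2.48 (adjusted p = 0.00961, SE 0.33). In each of these 5 genes both starchy endosperm libraries were above both aleurone libraries. zp15 (GRMZM2G086294), the beta zein, had 2483 and 10661 CPM in aleurone and 15706 and 42754 CPM in starchy endosperm, and with replicate 2 far above replicate 1 in each tissue it was not called (log2 -2.15, adjusted p = 0.295). The gamma zein gene gz27 (GRMZM2G138727) had 2472 and 13516 CPM in aleurone and 35734 and 139733 CPM in starchy endosperm (adjusted p = 0.207). gz16 (GRMZM2G060429), a further gamma zein, had 1014 and 3873 CPM in aleurone and 23430 and 60260 CPM in starchy endosperm (adjusted p = 0.0754). In zp15, gz27 and gz16 replicate 2 was above replicate 1 in each tissue and the tissues still did not overlap. Alpha zeins are near-identical copies whose reads the counting can split in more than one way, so values of single copies are uncertain.

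The zein called higher was z1C1_12 (GRMZM2G088365). It had 642 and 955 CPM in aleurone and 238 and 199.9 CPM in starchy endosperm, with both aleurone libraries above both starchy endosperm libraries. Its log2 fold change of 1.87 (adjusted p = 0.0452, SE 0.37) was lost without starchy endosperm replicate 2 (adjusted p = 0.126). At 18 DAP the value was -0.83 (adjusted p = 0.307). The difference between the ages was 2.70 (adjusted p = 1, SE 0.51). A further alpha zein, z1C1_11 (GRMZM2G088273), also had both aleurone libraries above, at 24.1 and 36.7 CPM in aleurone and 9.8 and 21.8 CPM in starchy endosperm, and was not called (log2 0.93, adjusted p = 0.58). z1C1_12 was the one gene of the 322 whose fitted sign differed between the ages. Unnamed genes outside the list were as abundant as many named zeins. Whether they are zeins missed by the matching of names was not tested. The zein shares and the scaling on counts outside the zeins above treated them as other genes. AF546188.1_FG005 had 17934 and 14659 TPM in aleurone and 88543 and 82904 TPM in starchy endosperm, and was called lower (log2 -4.35, adjusted p = 0.00301). AF546188.1_FG007 had 18972 and 15750 TPM in aleurone and 71189 and 62242 TPM in starchy endosperm, and was called lower too (log2 -3.901, adjusted p = 0.00351). GRMZM5G892124 had the highest TPM of the aleurone, with 34126 and 34477 TPM in aleurone and 1921 and 0 TPM in starchy endosperm. These values rested on few reads, 156 and 391 counts in aleurone and 33 and 0 counts in starchy endosperm, and the gene was not called (adjusted p = 0.723).

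Most enzymes of starch synthesis were lower in aleurone as well. Of 16 tested genes 10 were called lower in aleurone, against 0.504% of all tested genes. Called higher were 2, against 1.19%, and the median log2 fold change was -3.05. Of the 16 genes 4 were not called, and 5 had a positive fitted value. Agp2 and agpsl1, further ADP-glucose pyrophosphorylase genes by their names, and the branching enzyme gene sbe3 were not called, each with a positive fitted value. The ADP-glucose pyrophosphorylase subunits bt2 (GRMZM2G068506) and sh2 (GRMZM2G429899), which make the sugar nucleotide for starch, had the most negative values of the list. bt2 had 182 and 88.5 CPM in aleurone and 6729 and 2871 CPM in starchy endosperm, a log2 fold change of -5.15 (adjusted p = 0.0082, SE 0.66). sh2 had 255 and 133 CPM in aleurone and 5905 and 3184 CPM in starchy endosperm, a log2 fold change of -4.55 (adjusted p = 0.00598, SE 0.54). The groups did not overlap for either subunit. Downstream of them, bt1 (GRMZM2G144081), the carrier that brings ADP-glucose into the amyloplast, had 48 and 103 CPM in aleurone and 1065 and 1606 CPM in starchy endosperm, a log2 fold change of -4.15 (adjusted p = 0.0234, SE 0.69). Starch synthases of the amylopectin pathway were called lower as well. ss1 (GRMZM2G129451) had 54.1 and 60.8 CPM in aleurone and 769 and 412 CPM in starchy endosperm, with -3.36 (adjusted p = 0.0146, SE 0.48). sugary2 (GRMZM2G348551) had 10.7 and 24.7 CPM in aleurone and 142 and 278 CPM in starchy endosperm, with -3.57 (adjusted p = 0.0449, SE 0.699), and was lost without starchy endosperm replicate 2 (adjusted p = 0.0919). du1 (GRMZM2G141399) had 53.3 and 57.1 CPM in aleurone and 375 and 222 CPM in starchy endosperm, with -2.43 (adjusted p = 0.0223, SE 0.399). None of the 3 overlapped between the tissues. The branching enzyme gene ae1 (GRMZM2G032628) had 358 and 218 CPM in aleurone and 2632 and 1237 CPM in starchy endosperm, a log2 fold change of -2.75 (adjusted p = 0.0445, SE 0.54). The debranching enzyme gene zpu1 (GRMZM2G158043) had 25.3 and 9.11 CPM in aleurone and 334 and 201 CPM in starchy endosperm, a log2 fold change of -3.96 (adjusted p = 0.0163, SE 0.601). The plastid phosphorylase gene pho1 (GRMZM2G074158) had 131 and 45.8 CPM in aleurone and 1484 and 807 CPM in starchy endosperm, a log2 fold change of -3.699 (adjusted p = 0.0264, SE 0.64). All 3 of these were lower in each aleurone library. In TPM, which lacks the TMM factors, the tissues lay closer and overlapped for ae1, at 293 and 129.7 TPM in aleurone and 431 and 251 TPM in starchy endosperm. The granule-bound starch synthase gene wx1 (GRMZM2G024993), which makes amylose, had 617 and 2127 CPM in aleurone and 3784 and 7710 CPM in starchy endosperm, and with replicates far apart it was not called (log2 -2.07, adjusted p = 0.239).

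Sucrose synthases, which release UDP-glucose from incoming sucrose, divided between the tissues. sh1 (GRMZM2G089713) had 394 and 666 CPM in aleurone and 6489 and 7524 CPM in starchy endosperm, a log2 fold change of -3.72 (adjusted p = 0.00665, SE 0.46). sus1 (GRMZM2G152908) had 1121 and 2263 CPM in aleurone and 18.9 and 32.5 CPM in starchy endosperm, a log2 fold change of 6.02 (adjusted p = 0.00301, SE 0.58). sus2 (GRMZM2G318780) had 723 and 805 CPM in aleurone and 45.2 and 4.13 CPM in starchy endosperm, a log2 fold change of 5.01 (adjusted p = 0.0364, SE 0.93). sh1 was the form higher in starchy endosperm and sus1 and sus2 were higher in aleurone, with no overlap in any of them. Cytosolic glyceraldehyde-3-phosphate dehydrogenase, a glycolytic enzyme, also had genes called in each direction. gpc3 (GRMZM2G071630) had 102 and 48.4 CPM in aleurone and 1288 and 777 CPM in starchy endosperm, a log2 fold change of -3.78 (adjusted p = 0.00903, SE 0.49). gpc4 (GRMZM2G176307) had 87.7 and 76.7 CPM in aleurone and 887 and 862 CPM in starchy endosperm, a log2 fold change of -3.41 (adjusted p = 0.00351, SE 0.34). GPC1 (GRMZM2G046804) had 415 and 737 CPM in aleurone and 76.9 and 49.5 CPM in starchy endosperm, with 3.19 (adjusted p = 0.0163, SE 0.48) and an adjusted p = 0.0614 without starchy endosperm replicate 2. GPC1 thus lay opposite to gpc3 and gpc4. The gene named enolase (GRMZM2G009030) was at least 62.7-fold higher in aleurone, at 32.2 and 33.5 CPM in aleurone and 0 counts in both starchy endosperm libraries (adjusted p = 0.0425, and 0.0733 without starchy endosperm replicate 2). These 4 were the calls among 15 tested glycolysis genes. Called higher were 2, against 1.19% of all tested genes, and lower 2, against 0.504%.

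**Figure D3:**
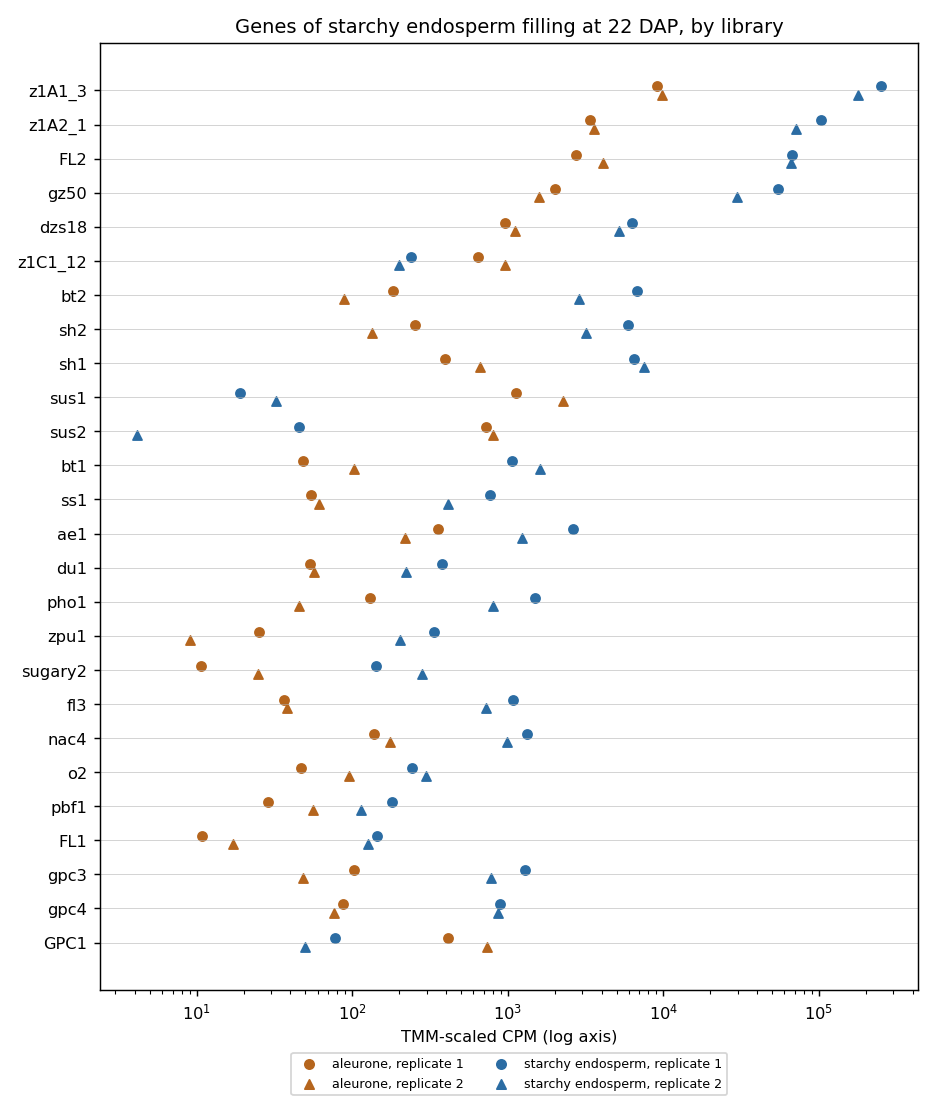
TMM-scaled CPM (log axis) of 26 genes of zein, starch, sucrose and triose metabolism and their regulators in each of the 4 libraries at 22 DAP, brown for aleurone and blue for starchy endosperm, circles for replicate 1 and triangles for replicate 2. Starchy endosperm is to the right for all but z1C1_12, sus1, sus2 and GPC1, and pbf1 and o2, which were not called, lie closest together of the other genes.

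The regulators that drive zein genes were not called by edgeR with TMM scaling, and some other settings called them. Opaque2 and PBF1 bind the promoters of zein genes. o2 (GRMZM2G015534) had 46.5 and 95.5 CPM in aleurone and 242 and 299 CPM in starchy endosperm, a log2 fold change of -1.93 (adjusted p = 0.101). pbf1 (GRMZM2G146283) had 28.5 and 56.2 CPM in aleurone and 179 and 114 CPM in starchy endosperm, a log2 fold change of -1.78 (adjusted p = 0.149). Both were lower in each aleurone library. pbf1 passed with DESeq2 at -1.71 (adjusted p = 0.0263) and not with limma-voom (adjusted p = 0.0668). The adjusted p of o2 was 0.0262 with DESeq2, 0.0428 with limma-voom, 0.0457 with upper quartile factors and 0.00584 with no filter on low counts. It was 0.0228 without starchy endosperm replicate 1 and 0.0377 without aleurone replicate 1 of 18 DAP, and 0.082 to 0.302 without any other library. In TPM the tissues overlapped, with 66.6 and 107 TPM in aleurone and 70.0 and 115 TPM in starchy endosperm for o2. On the log2(TPM + 1) scale pbf1 had a difference of 0.10. Of the Opaque2 partners, ohp1 (GRMZM2G016150) had 14.9 and 8.36 CPM in aleurone and 9.8 and 16.5 CPM in starchy endosperm (log2 -0.19, adjusted p = 0.947). ohp2 (GRMZM2G007063) had 14.4 and 11.7 CPM in aleurone and 3.02 and 16.1 CPM in starchy endosperm (log2 0.42, adjusted p = 0.886), and both overlapped between the tissues. The sign of ohp1 turned to 1.37 with the total count alone, and that of ohp2 to -0.086 with upper quartile factors, while on the log2(TPM + 1) scale ohp2 passed limma's test as higher, at 2.27 (adjusted p = 0.0315). MADS47 (GRMZM2G099577), with 5 and 1 counts in aleurone and 0 counts in both starchy endosperm libraries, and dof3 (GRMZM2G179069), with none, had too few reads to be tested. Other regulators were called. fl3 (GRMZM2G006585), a PLATZ zinc-binding protein whose mutant gives floury kernels, had 36.1 and 38 CPM in aleurone and 1073 and 728 CPM in starchy endosperm. Its log2 fold change was -4.602 (adjusted p = 0.00301, SE 0.44). nac4 (GRMZM2G154182), a NAC-domain factor, had 137 and 174 CPM in aleurone and 1328 and 992 CPM in starchy endosperm. Its log2 fold change of -2.898 (adjusted p = 0.0103, SE 0.39) was the call among 13 tested NAC genes, against 0.504% of all tested genes called lower. GATA27 (GRMZM2G052616) had 10.7 and 5.07 CPM in aleurone and 68.6 and 58.5 CPM in starchy endosperm, a log2 fold change of -3.01 (adjusted p = 0.0449, SE 0.59) that was lost without starchy endosperm replicate 2 (adjusted p = 0.0544). fl3 had the largest difference of the 3, with aleurone replicates nearly equal and no overlap.

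Genes for folding proteins in the endoplasmic reticulum, where zeins form protein bodies, were called in 2 cases. Of 26 tested 1 was called higher, against 1.19% of all tested genes, and 1 lower, against 0.504%. The median of 0.32 lay below that of all genes. FL1 (GRMZM2G094532), a membrane protein of the protein body that places alpha zein, had 10.9 and 17 CPM in aleurone and 144 and 127 CPM in starchy endosperm, a log2 fold change of -3.27 (adjusted p = 0.0114, SE 0.45). PDIL5-1 (GRMZM2G073628), a disulfide isomerase-like gene, had 22.9 and 19.3 CPM in aleurone and 111 and 88.3 CPM in starchy endosperm and missed the threshold (log2 -2.24, adjusted p = 0.0508). pdi2 (GRMZM2G163421), a disulfide isomerase by its name, went the other way, at 95.3 and 104 CPM in aleurone and 11.3 and 8.48 CPM in starchy endosperm, a log2 fold change of 3.35 (adjusted p = 0.0193, SE 0.53) that was lost without starchy endosperm replicate 2 (adjusted p = 0.053).

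Many lists held no call at all, where 1.69% of all tested genes were called, and some of these lists had high medians. These included jasmonate and lipoxygenase genes (22 tested, median 6.07, 3.52 with bounds), aquaporins (17 tested, 7.27 and 3.004), sugar transporters and invertases (7 tested, 5.999 and 3.16) and cell cycle genes (17 tested, 4.02 and 3.005). tip4d (GRMZM2G093090), an aquaporin of the vacuole membrane, had 13.7 and 121 CPM in aleurone and 0 counts in both starchy endosperm libraries and was not called (adjusted p = 0.0725). ts1 (GRMZM2G104843), the tasselseed1 lipoxygenase, had 10.7 and 47.6 CPM in aleurone and 0 counts in both starchy endosperm libraries and was not called (adjusted p = 0.106). The sucrose transporter gene sut4 (GRMZM2G307561) had 25.1 and 22.2 CPM in aleurone and 0.754 and 0 CPM in starchy endosperm (adjusted p = 0.0744). In each of these both aleurone libraries were above both starchy endosperm libraries. Housekeeping lists lay under the median of all genes, with 0.19 for 33 ribosomal protein genes, 0.203 for 10 translation factors and 0.55 for 27 polycomb and chromatin genes. Auxin, cytokinin and ethylene, MYB, WRKY, AP2/ERF and bHLH lists had medians from 1.31 to 2.85 and no call.

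**Figure D4:**
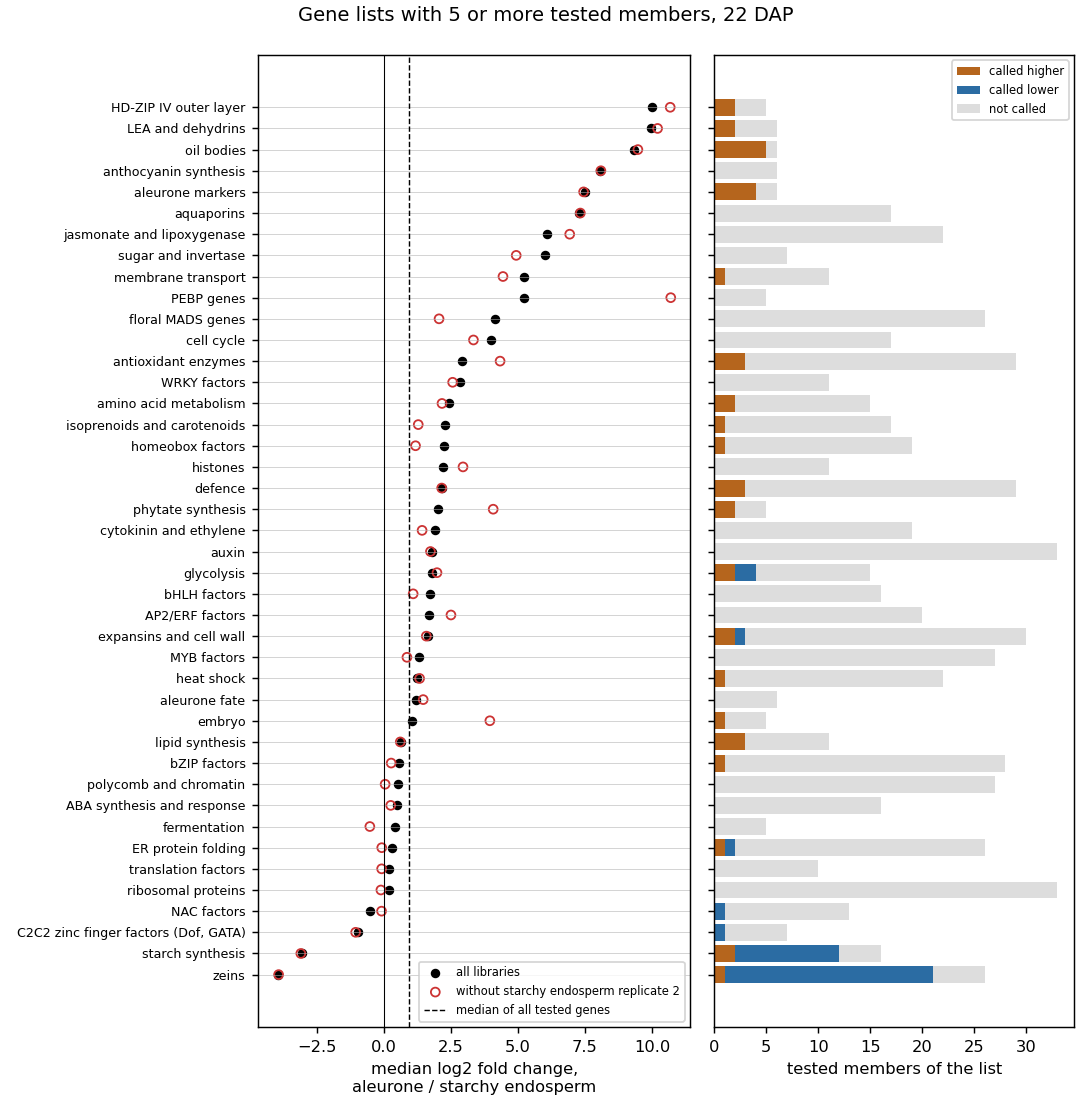
Median log2 fold change (left, aleurone over starchy endosperm) and number of tested members called higher, called lower or not called (right) for the gene lists with at least 5 tested members. Filled points use all libraries and open points leave out starchy endosperm replicate 2, and the dashed line is the median of all tested genes. Zeins and starch genes lie at -3.94 and -3.05, and HD-ZIP IV, LEA and oil body genes at 9.99, 9.98 and 9.32, or 6.24, 5.41 and 8.41 with genes at 0 in starchy endosperm at their bound.

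Markers of other kernel parts were low, with exceptions. The basal transfer layer list summed to 15.4, 4.92, 2.67 and 1.63 TPM in aleurone and starchy endosperm, with 7, 9, 8 and 9 of its 10 genes at 0. Both genes of the embryo surrounding region were at 0 in every library. Photosynthesis genes summed to 5, 7.93, 2.61 and 8.52 TPM. The embryo list summed to 249, 1312, 5.24 and 6.47 TPM, of which glb1 made up all but 12.6, 43.2, 4.71 and 3.72 TPM. Of its 10 genes 3, 6, 6 and 8 were at 0, with lec1 at 0 in all 4 libraries. Other members had reads, with 7.51, 37.2, 0 and 0 TPM for glb2 and 0.71, 2, 0.42 and 3.72 TPM for wox2a. Floral MADS genes, which stood for maternal tissues such as the pericarp, had TPM sums of 700, 459, 60.3 and 81.9. Of 26 tested 15 had both aleurone libraries above starchy endosperm, against 41.6% of all tested genes. The reverse held for 3, against 12.1%. m6 (GRMZM2G159397) had 93.5 and 67.2 CPM in aleurone and 0 counts in both starchy endosperm libraries, at least 145-fold higher (adjusted p = 0.0535). MADS4 (GRMZM2G097059) had 40.7 and 34 CPM in aleurone and 0 counts in both starchy endosperm libraries, at least 69-fold higher (adjusted p = 0.058). m20, given under other observations, lay the other way. None of the 26 was called, and 11 had no count in 1 of the tissues and passed the filter on low counts only through other libraries. The part of pericarp cells in the aleurone results, and of starchy endosperm cells in the zein and starch levels of the peels, was not tested.

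To show whether the tissue difference at 22 DAP departed from that at 18 DAP, the genes called at 22 DAP were read at both ages and the interaction was tested. At 18 DAP 395 genes (2.07%) were called, 230 (1.21%) higher and 165 (0.866%) lower in aleurone. Of the 226 genes higher at 22 DAP 174 were called higher at 18 DAP, which is 77.0% of the first list and 75.7% of the second. Of the 96 lower genes 89 were called lower at 18 DAP, which is 92.7% of the first and 53.9% of the second. The libraries of the 2 ages are separate and no control is shared, but all 8 share 1 estimate of the spread. No gene was called for the interaction by edgeR, with 390 at an unadjusted p under 0.05, while edgeR called 17 with no filter on low counts, DESeq2 7 and limma-voom 0. Without starchy endosperm replicate 1 at 22 DAP the count was 2260, and it was 0 without any other single library. Some genes described above were called at 22 DAP and not at 18 DAP, with no interaction that passed, and the following were picked after their values were seen. sus2 was at 5.01 at 22 DAP and 2.37 (adjusted p = 0.216) at 18 DAP, an interaction of 2.63 (adjusted p = 1, SE 1.14). For vpp1 the value at 18 DAP was 3.65 (adjusted p = 0.0838), and the interaction was 1.77 (adjusted p = 1, SE 1.18). For mips2 it was 3.596 (adjusted p = 0.111), and the interaction was 2.94 (adjusted p = 1, SE 1.39). The fitted tissue difference was the larger at 22 DAP in each. lkrsdh1 was at 1.83 (adjusted p = 0.111) at 18 DAP, with an interaction of 1.32 (adjusted p = 1, SE 0.68). Of the 4 tested filling regulators 2 were called lower at 18 DAP, o2 among them, and none at 22 DAP. For o2 the value at 18 DAP was -3.36 (adjusted p = 0.0133), with an interaction of 1.44 (adjusted p = 1, SE 0.66). The median of the zein list was -4.48 at 18 DAP and -3.94 at 22 DAP, and that of the starch list -3.64 and -3.05, while the median of all genes was 0.47 and 0.94.

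**Figure D5:**
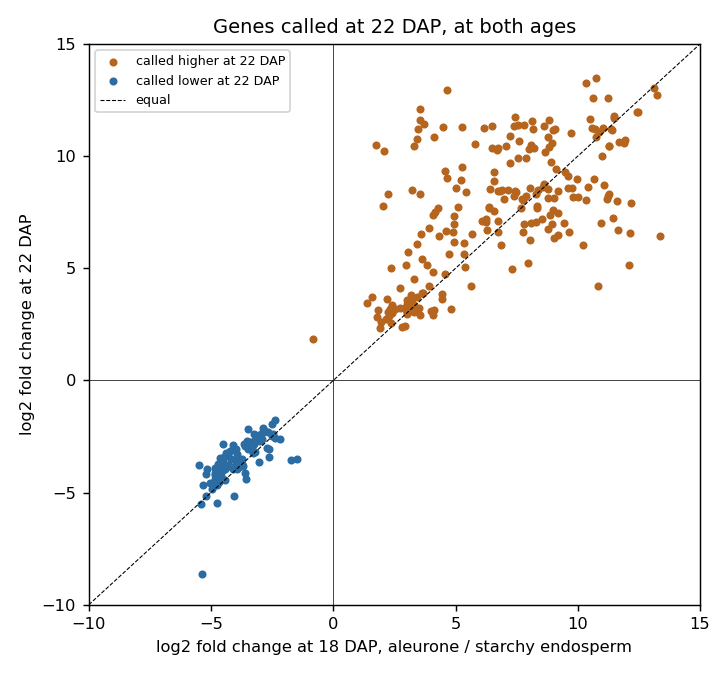
Log2 fold change of aleurone over starchy endosperm at 22 DAP (vertical axis) against that at 18 DAP (horizontal axis) for the 322 genes called at 22 DAP, brown for the 226 higher and blue for the 96 lower. The dashed line marks equal values, and the brown point left of the vertical zero line is z1C1_12.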

How the data were processed

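Per the submitters' processing notes, FastQC, RSEM 1.2.15, Bowtie2 2.2.3 and SAMtools were used with the B73 RefGen_v3 build. Which annotation and strand option were used is not given in the sources used here. The authors deposited, per the file headers, RSEM expected counts and TPM per gene for each library. Reads that match several genes are shared out in expected counts, so values of near-identical copies depend on that step. The expected counts, rounded to integers, were fitted with edgeR 4.0.16 in R 4.3.3 (filterByExpr, TMM factors, quasi-likelihood test), with 4 group means over all 8 libraries and Benjamini-Hochberg adjustment over 19058 genes at 0.05. The procedure was checked on simulated counts. TPM was used as deposited. limma 3.58.1 and DESeq2 1.42.0 gave alternative tests. For a gene with 0 counts in a tissue, the ratio printed is a bound set by 3 counts over that tissue's libraries. For 1 to 3 counts, an exact 95% interval is given. Bounds and intervals cover counting error only, and p-values measure only the spread between these libraries. Names came from symbols and synonyms in the Zm-B73-REFERENCE-NAM-5.0 RefSeq table, which matched 18908 of 39475 gene identifiers.

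The members and lists were chosen with earlier results of these data known. Genes named were the 8 called with the largest change in each direction (no overlap, averaging 20 TPM or more in the higher tissue), up to 4 of each list by adjusted p with a mean of at least 5 TPM, the matched regulators of aleurone fate and filling, the 5 most abundant genes of each tissue, and members covered by a count of 5 or fewer. Regulators sought by symbol and not matched, among them thk1, thk2, idd11, dil1, o11, nac128 and nac130, were not analysed here. Per-transcript tables and the table of group means were not used here.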

Additional observations from a re-analysis of the deposited data

How the results depend on the processing

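Against 322 calls, edgeR gave 1623 with the total count alone, 1266 with every gene of at least 1 count, 580 with a replicate block, 0 with the 4 libraries of 22 DAP alone and 792 with these and a replicate block. DESeq2 gave 2360, limma-voom 727 and limma on log2(TPM + 1) 10620. Leaving out 1 library gave 179 to 4938. Of the members of the lists 72 were called, against 187, 173, 207 and 479 with the total count alone, no filter, DESeq2 and log2(TPM + 1), 0 and 117 with the 4 libraries alone without and with the replicate block, and 55 to 241 with 1 library left out. Of the 109 genes described 65 were called, 0 with the 4 libraries alone, and 46 to 96 with 1 library left out. None of the 65 reversed under any of the 19 alternatives. The interaction count of 0 became 17 with no filter and 7 with DESeq2, and 0 to 2260 with 1 library left out. The cause of these differences was not tested.

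Directions turned for 5 genes that were not called. pbf1 became 0.10 with log2(TPM + 1). ohp2 became -0.086 with upper quartile factors and ran from -0.27 (without starchy endosperm replicate 1) to 2.11 with 1 library left out. ohp1 became 1.37 with the total count alone, 0.15 with counts outside the zeins and 1.51 with log2(TPM + 1), and ran from -0.85 to 0.26 (without starchy endosperm replicate 2) with 1 library left out. dek1 became 0.95 with the total count alone and 1.03 with log2(TPM + 1). Sal1 became -0.42 with upper quartile factors and -0.23 with limma-voom, and ran from -1.18 (without aleurone replicate 2) to 1.11 with 1 library left out, below 0 also without starchy endosperm replicate 1 and without aleurone replicate 1 of 18 DAP.

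The labels do not say that a replicate number marks a shared plant. The differences between replicates correlated across 19058 genes at r from 0.19 to 0.41 over the 6 pairs of groups (0.22 for the tissues at 22 DAP), where genes are not independent. With the replicate block the calls were 327 higher and 253 lower, 64 of the 65 described genes kept theirs, and 13 of the 44 not called passed (19 of 44 with the 22 DAP libraries alone and the block). With the block the adjusted p of o2 was 0.0114, and with 22 DAP alone and the block it was 0.00106 for o2 and 0.0258 for pbf1. Depth limits what starchy endosperm can show, since 3 counts are 2.26 CPM in its replicate 1.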

Other observations

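Jasmonate and lipoxygenase genes serve wound and defence signals. Of 22 tested, 17 had both aleurone libraries above both starchy endosperm libraries, against 41.6% of all tested genes, and 1 had the reverse. Of the 22 genes 12 had no count in 1 of the tissues and passed the filter on low counts only through other libraries. Their TPM summed to 390, 863, 25 and 47.1 in aleurone replicates 1 and 2 and starchy endosperm replicates 1 and 2, and none was called. lox3 (GRMZM2G109130), a lipoxygenase, had 6.62 and 40.6 CPM in aleurone and 0 counts in both starchy endosperm libraries (adjusted p = 0.149). opr5 (GRMZM2G087192), a reductase of the oxylipin pathway, had 17 and 25.8 CPM in aleurone and 0 counts in both starchy endosperm libraries (adjusted p = 0.142). Among the water channels, tip3a (GRMZM2G305446), an aquaporin of the vacuole membrane, had 63.4 and 330.3 CPM in aleurone and 6.03 and 12.6 CPM in starchy endosperm (adjusted p = 0.125). Further floral MADS genes were m27 (GRMZM2G129034), with 35.1 and 31.6 CPM in aleurone and 0 counts in both starchy endosperm libraries (adjusted p = 0.0789), and m20 (GRMZM2G059102), with 0.678 and 0 CPM in aleurone and 12.8 and 59.4 CPM in starchy endosperm (adjusted p = 0.138). The translation factor gene eif5a (GRMZM2G113696) had 713 and 606 CPM in aleurone and 231 and 138 CPM in starchy endosperm (adjusted p = 0.0535).

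Among the alpha zeins, z1A2_2 (GRMZM2G008913) had 4398 and 4092 CPM in aleurone and 126274 and 76905 CPM in starchy endosperm, with -4.58 (adjusted p = 0.00301, SE 0.44) on the log2 scale. fl4 (GRMZM2G353272), whose mutant gives floury kernels, had 1766 and 1864 CPM in aleurone and 42116 and 27098 CPM in starchy endosperm, with -4.25 (adjusted p = 0.00301, SE 0.402) on the log2 scale. Both were lower in each aleurone library, and both passed without starchy endosperm replicate 2 (adjusted p = 0.00183 and 0.00183). Adjusted p-values are from edgeR's quasi-likelihood test.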
